A study of Rattus norvegicus with 4 samples.

Results

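A set of 10 transcription factor genes, most of them known from the immediate early response, was followed on 4 arrays of exposed rat macrophages. They comprise the FOS genes Fos, Fosb, Fosl1 and Fosl2, the JUN genes Jun, Junb and Jund, the stress factor Atf3, and the zinc finger genes Egr1 and Egr2. They were picked by gene name, through the RefSeq accession of each probe, and the rule itself uses no measured value. They were covered by 15 probes, out of 16581 named genes with 21109 probes in all. The cells were NR8383, an alveolar macrophage line established from rat lung lavage and described as passaged 20 times. The 4 cultures had received Fe2O3 (NRCWE018) at 2 µg/mL and were taken after 4 h, and each was hybridised to 1 single-colour array. Unexposed cultures are not analysed here, so no value below is an effect of the particles, and levels are described within this 1 group. The study states 4 biological replicates per condition.

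AP-1 is a dimer of basic leucine zipper proteins. JUN proteins can pair with each other or with FOS proteins, whereas FOS proteins need a JUN partner to bind DNA. Many of these genes are immediate early genes: MAP kinase signalling through serum response factor and CREB switches them on within minutes of a stimulus, and their mRNAs are short-lived. ATF3 is a related zipper protein induced by stress that restrains inflammatory genes in macrophages. EGR1 and EGR2 are zinc finger factors of the same early response, and EGR factors take part in the maturation of the macrophage lineage.

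On these arrays 7 of the 10 genes were above background on all 4 arrays, against 50.5% of all named genes. These were Fosb, Fosl2, Jun, Junb, Jund, Atf3 and Egr2. Fos was above background on 2 arrays (some arrays: 6.45% of named genes), and Fosl1 and Egr1 on none (43.0%). Among the FOS and JUN genes alone, 5 of 7 were above background on all arrays. A gene was called above background on an array when more than 0.5 of its probe's spots there carried the scanner software's mark of being well above background. With the laxer mark of a positive and significant signal the number rose to 9 of 10, against 59.0% of all named genes, and Fosl1 remained the exception. Counting genes above background on 1 array or more, the number was 8 of 10, against 57.0% of named genes. Probes differ in how well they detect their mRNA, so these counts do not separate silent genes from poorly detected ones.

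The promoters of 7 of the 10 genes were matched by symbol in RefSeq sequences of the GRCr8 assembly, each as the 250 bases before the gene's start. Fos, Jun and Atf3 had no match and were not searched. The promoters of Egr1 and Egr2 are shown because Egr2 was called above background on all 4 arrays and Egr1 on none. Egr1 was still marked positive and significant on all 4. Those of Fosl2 and Jund are shown because the probes standing for these genes varied most alike over the 4 arrays. A second Jund probe did not share this, and the other Fosl2 probes were highest on a different array. Capitals mark matches, on either strand, to the CArG box (the core bound by serum response factor), to TGACGT and TGACGTCA (CREB and ATF sites, the first contained in the second) and to TATAAA.
Egr1, chr18:26736828-26737077, plus strand: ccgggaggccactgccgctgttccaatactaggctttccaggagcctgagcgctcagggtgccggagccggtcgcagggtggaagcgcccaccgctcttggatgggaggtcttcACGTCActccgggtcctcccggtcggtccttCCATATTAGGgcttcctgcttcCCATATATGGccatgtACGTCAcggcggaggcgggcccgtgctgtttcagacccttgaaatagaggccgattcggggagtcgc
Egr2, chr20:21054442-21054691, minus strand: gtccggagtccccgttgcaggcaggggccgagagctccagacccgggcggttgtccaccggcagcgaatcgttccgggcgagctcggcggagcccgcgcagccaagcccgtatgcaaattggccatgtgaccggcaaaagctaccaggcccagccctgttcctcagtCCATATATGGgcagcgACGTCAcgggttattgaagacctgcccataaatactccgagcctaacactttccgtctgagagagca
Fosl2, chr6:30039270-30039519, minus strand: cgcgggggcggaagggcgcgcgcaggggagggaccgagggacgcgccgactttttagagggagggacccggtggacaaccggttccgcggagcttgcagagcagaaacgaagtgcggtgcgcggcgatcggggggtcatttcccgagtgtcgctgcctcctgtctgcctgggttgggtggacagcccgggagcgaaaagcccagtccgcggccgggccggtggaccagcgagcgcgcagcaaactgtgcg
Jund, chr16:18769772-18770021, minus strand: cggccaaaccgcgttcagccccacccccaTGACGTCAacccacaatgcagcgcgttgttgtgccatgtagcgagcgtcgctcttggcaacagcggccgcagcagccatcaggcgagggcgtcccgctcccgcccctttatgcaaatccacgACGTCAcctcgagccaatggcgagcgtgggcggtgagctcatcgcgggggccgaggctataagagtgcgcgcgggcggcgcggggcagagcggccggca
The Egr1 window held 2 CArG boxes, which began 105 and 83 bases before the start, and TGACGT in reverse orientation at 136 and 67 bases. In the Egr2 window, 1 CArG box and 1 reverse TGACGT lay at the same distances, 83 and 67 bases. A CArG box was present in 1.5% and TGACGT in 6.95% of the 33469 windows of this length. Jund held the full TGACGTCA 221 bases before its start (1.59% of windows) and a further TGACGT match at 99 bases, and Fosl2 held none of the marked motifs. Fosb and Junb each held 1 TATAAA (12.9% of windows). The EGR consensus GCGNGGGCG, searched on both strands and left in lower case, matched 3 times in Jund and 1 time in Fosl2 (4.29% of windows), and the AP-1 motif TGANTCA matched none of the 7 windows (6.34% of windows). A match is a description of letters and not a measured binding site.

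Levels are given as log2 of the processed signal relative to the 75th percentile of the same array, so 0 is a signal equal to that percentile. The percentile was 1072, 984.3, 1082 and 756.5 intensity units on replicates 1 to 4, and no spot was saturated. Replicate 4 thus had the lowest signal. Levels of different probes cannot be ranked against each other, because probes differ in how well they bind. Precision is limited by there being 4 arrays.

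Fos, the founding FOS gene, lay at the edge of detection. Its probe has 2 spots per array. Their mean processed signal was 36.3, 32.0, 33.3 and 27.5 intensity units on replicates 1 to 4, with error estimates of the scanner software between 5.99 and 6.83. On replicates 1 and 2 both spots were marked well above background, and on replicates 3 and 4 only 1 of the 2 spots was. The relative levels of -4.88, -4.95, -5.05 and -4.78 differed by no more than 0.27 over the arrays. The mark thus differed between arrays whose mean relative levels were close. Only 1 spot lost the mark, reading 34.3 and 33.7 on replicates 1 and 2, and 26.6 and 28.0 on replicates 3 and 4. The other spot kept the mark on every array, also at 27.1 on replicate 4. On replicate 3 the 2 spots read 26.6 and 40.0, the widest gap of any array. If 1 marked spot is enough, a rule chosen after seeing the data, Fos was above background on all 4 arrays and the count became 8 of 10, against 50.7% of named genes.

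Fosl1, which encodes FRA1, gave signals of 5.85, 5.00 and 5.58 on replicates 1, 2 and 4, each no larger than its own error estimate. On replicate 3 the single spot read 25.0 with an error of 6.16. That spot was marked positive and significant but not well above background. With normexp, an alternative background correction of the median spot signal, Fosl1 read -3.96, -3.92, -3.63 and -3.59 on replicates 1 to 4. Replicate 3 thus stood out on the processed signal only. Egr1 read 14.2, 18.3, 17.7 and 21.7 on replicates 1 to 4, with errors from 4.77 to 5.85. All 4 spots of Egr1 were marked positive and significant, and none well above background.

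**Figure D1:**
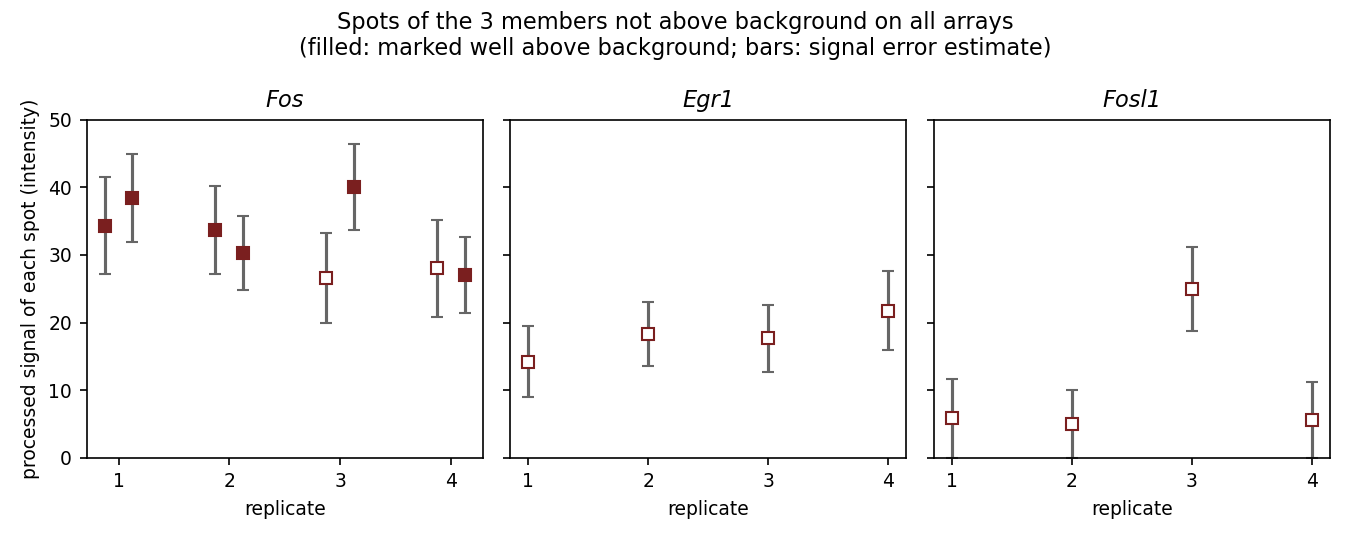
Processed signal (intensity, y axis) of every spot of Fos, Egr1 and Fosl1 by replicate (x axis), with the scanner software's error estimate as bars and filled squares for spots marked well above background. Of the 2 Fos spots, 1 is marked on all 4 arrays. The other is marked at 34.3 and 33.7 on replicates 1 and 2, and not at 26.6 and 28.0 on replicates 3 and 4. On this processed signal, Fosl1 stands out from its 3 other arrays on replicate 3 alone, at 25.0. It does not with the normexp alternative.

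The 2 other FOS genes were present on every array. Fosb, whose protein also forms AP-1 with JUN partners, was at -1.95, -1.70, -2.47 and -1.71 on replicates 1 to 4 (-1.96 ± 0.36, SD, n = 4). It was lowest on replicate 3, highest on replicates 2 and 4, which were nearly alike, and in between on replicate 1. Fosl2, which encodes FRA2, had 3 probes, all above background on every array. The probe that stands for the gene read -1.53, -1.32, -1.63 and -1.45 (-1.48 ± 0.13). All 3 Fosl2 probes were lowest on replicate 3, and their deviations from their own means differed by root mean squares of 0.10 to 0.15 between probes. Each pair of these probes lay on the same side of its means on 2 of 4 arrays.

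Among the JUN genes, Jun and Jund varied less than Junb over all 4 arrays. Without replicate 4 the order reversed, with SDs of 0.18, 0.19 and 0.13 for Jun, Jund and Junb. With the median of neighbouring spots subtracted, an alternative described with Junb, they were 0.18, 0.18 and 0.19. Jun, the main AP-1 partner of the FOS proteins, has a probe with 10 spots per array, the most of any member. Its level was 0.23, -0.11, 0.16 and 0.15 on replicates 1 to 4 (0.11 ± 0.15, SD, n = 4). The SD among the 10 spots of an array was 0.06, 0.08, 0.11 and 0.11, against 0.15 among the 4 array means. The spots of replicate 2 ran from -0.28 to -0.02, below every spot of replicate 1 (0.09 to 0.32), but overlapped those of replicates 3 and 4. Position by position, replicate 2 was the lowest array at each of the 10 spots. The same spot was the lowest of its array on all 4 arrays. Repeat spots share 1 culture per array, so they do not add replicates. A second Jun probe with 1 spot per array did not follow the first, at -0.33, -0.18, -0.19 and 0.30. Its lowest array was replicate 1, where the first probe was highest.

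Jund, a JUN gene usually expressed without a stimulus, had probes for 2 RefSeq transcripts, both above background on all arrays. The probe of NM_001286966 read 3.44, 3.62, 3.23 and 3.55 on replicates 1 to 4 (3.46 ± 0.17), and that of NM_138875 read -1.87, -2.27, -1.76 and -1.98 (-1.97 ± 0.22). The probes lay on opposite sides of their own means on all 4 arrays, so the differences between cultures were not shared by both probes. The first of them varied almost as the probe standing for Fosl2 did, both being highest on replicate 2. The other Fosl2 probes were instead highest on replicate 1, at -2.06 and -1.96. The root mean square difference between the deviations of Fosl2 and Jund was 0.05, the smallest of the 21 pairs among the 7 genes above background, and that between Junb and Atf3, 0.70, was the largest. Both places depend on the processing. With the mean over each gene's probes the difference between Fosl2 and Jund was 0.12, and Jund and Egr2 were closest, at 0.04. With the median of neighbouring spots subtracted, an alternative described with Junb, that between Junb and Atf3 was 0.38, and Fosb and Jun were farthest apart, at 0.40.

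Junb, a JUN protein that binds DNA with FOS partners and can dampen JUN activity, was low on replicate 4. Its single probe read -1.68, -1.72, -1.92 and -2.84 on replicates 1 to 4 (-2.04 ± 0.54, SD, n = 4), from processed signals of 335.5, 298.7, 286.0 and 105.7. Replicates 1 to 3 lay close together, and replicate 4 lay well below the lowest of them. The Junb spot sits in a region of replicate 4 where other genes' spots were dim as well. Among the 59 spots of other probes within 10 rows and 3 columns of it with a signal well above background throughout, the median deviation from their own means was -0.57 on replicate 4, and 0.14, 0.24 and 0.13 on replicates 1 to 3. Junb itself deviated by -0.80 on replicate 4. After subtracting the median of the neighbours, an alternative chosen after seeing the data, Junb read -1.82, -1.96, -2.05 and -2.27, and its SD fell from 0.54 to 0.19.

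**Figure D2:**
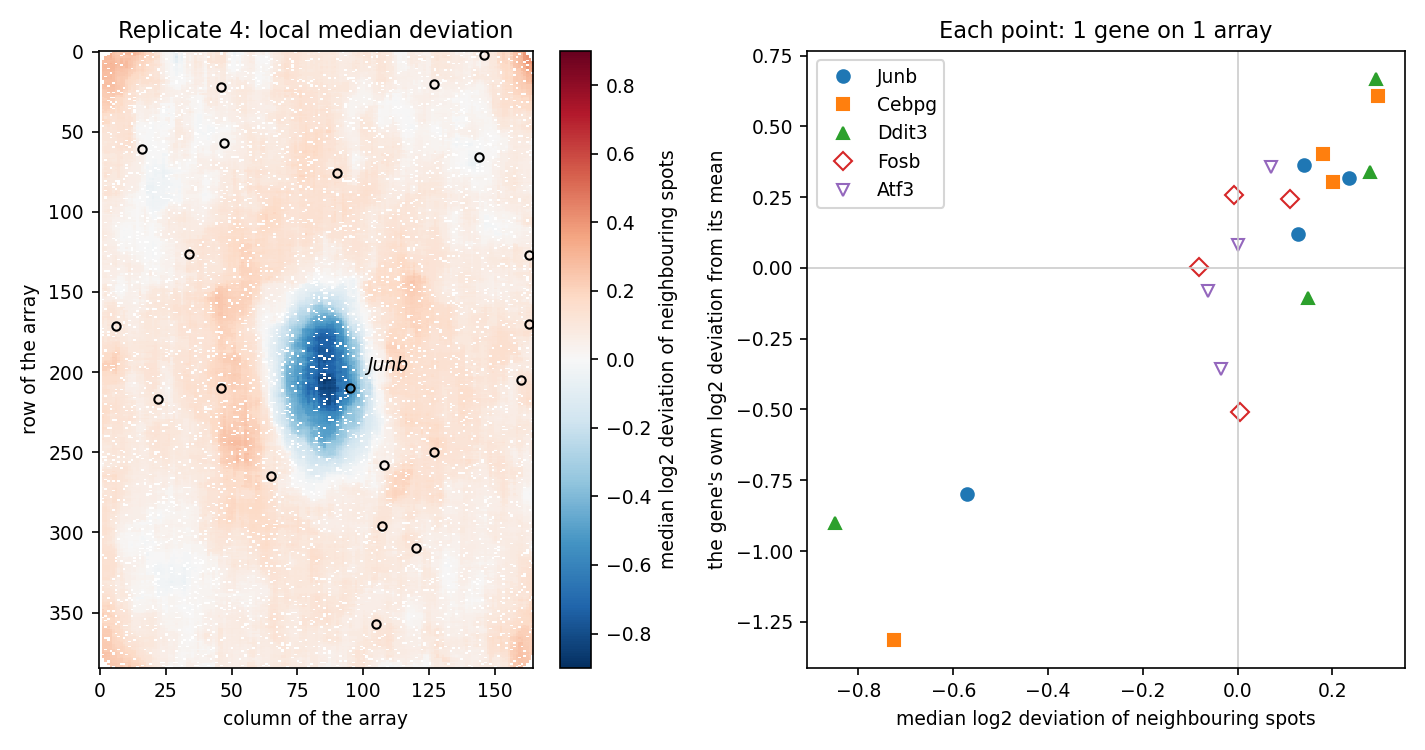
Left, for every spot of replicate 4 by row and column of the array, the median log2 deviation of the spots around it, with circles at the spots of the 10 genes. Right, each gene's own log2 deviation (y axis) against that of its neighbours (x axis), 1 point per array, for Junb, Cebpg, Ddit3, Fosb and Atf3. An oval of dim spots near the middle of the array holds the Junb spot and no other circle, and the points of Junb, Cebpg and Ddit3 on replicate 4 sit together at the lower left.

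The dim region, counted as spots whose neighbours had a median deviation below -0.5, held 997 spots or 1.70% of non-control spots, in rows 169 to 236 and columns 74 to 96. No spot of replicates 1 to 3 had such neighbours, and of the members only Junb lay there. Of 114 tested genes whose probe lay in it, 91.2% were lowest on replicate 4, against 14.3% of the genes elsewhere; the region was drawn from the same deviations, so these shares describe it and test nothing. Their median SD over the arrays was 0.56, against 0.18 elsewhere. The scanner software marked 12.2% of the spots in the region as outliers on replicate 4, and the Junb spot was not among them.

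Atf3, the stress-induced repressor, was above the 75th percentile on every array. Its probe has 2 spots per array and read 0.39, 0.82, 0.66 and 1.10 on replicates 1 to 4 (0.74 ± 0.30, SD, n = 4). The SD between its 2 spots on an array had a median of 0.04, which covers scatter within arrays only. Replicate 1 was lowest and replicate 4 highest. Before scaling, the processed signals were 1402, 1743, 1713 and 1624, with replicate 2 highest, so replicate 4 was highest on the scaled values only. Replicate 4 was still highest after quantile normalization, at 1.06. With the percentile taken over probes above background, all genes moved by -1.24 and Atf3 lay below the reference on all 4 arrays, from -0.85 to -0.19.

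**Figure D3:**
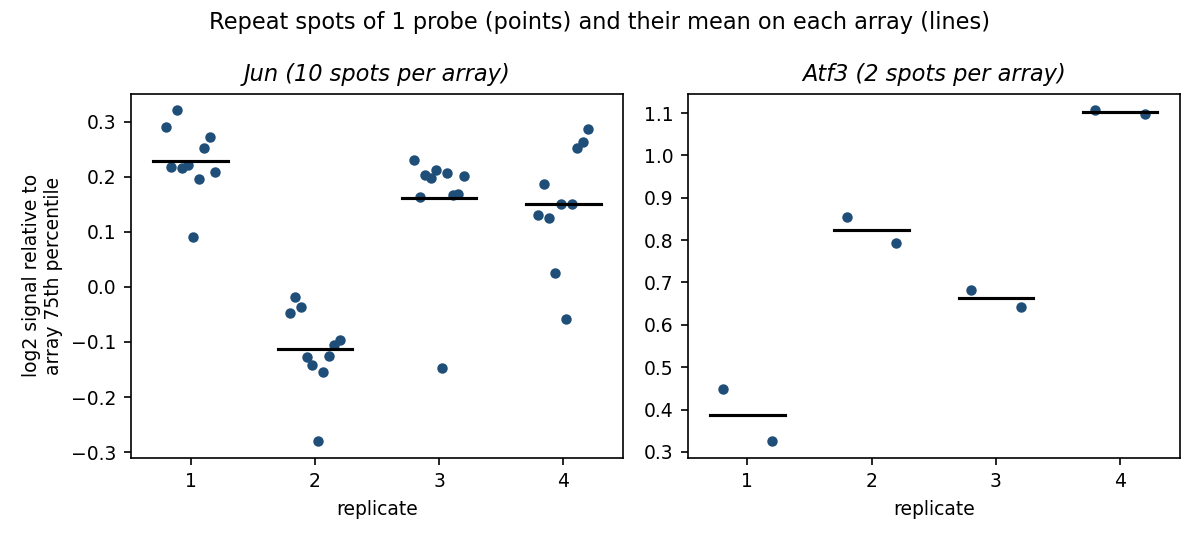
Log2 level against the 75th percentile of each array (y axis) for each repeat spot (points) of the Jun probe with 10 spots and the Atf3 probe with 2 spots, by replicate (x axis), with lines at the mean of the spots. The Jun spots of replicate 2 centre on -0.11, below the other arrays, and the Atf3 pairs stay close together while their means run from 0.39 to 1.10.

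Egr2, a zinc finger factor of the same family as Egr1, had 2 probes above background on all arrays. The first read -1.69, -1.73, -1.77 and -1.38 on replicates 1 to 4 (-1.64 ± 0.18, SD, n = 4), with replicate 4 highest. The second read -3.67, -3.63, -3.57 and -3.80 (-3.67 ± 0.10), with replicate 4 lowest. The probes thus disagreed on replicate 4, and they lay on the same side of their own means on 1 of the 4 arrays.

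**Figure D4:**
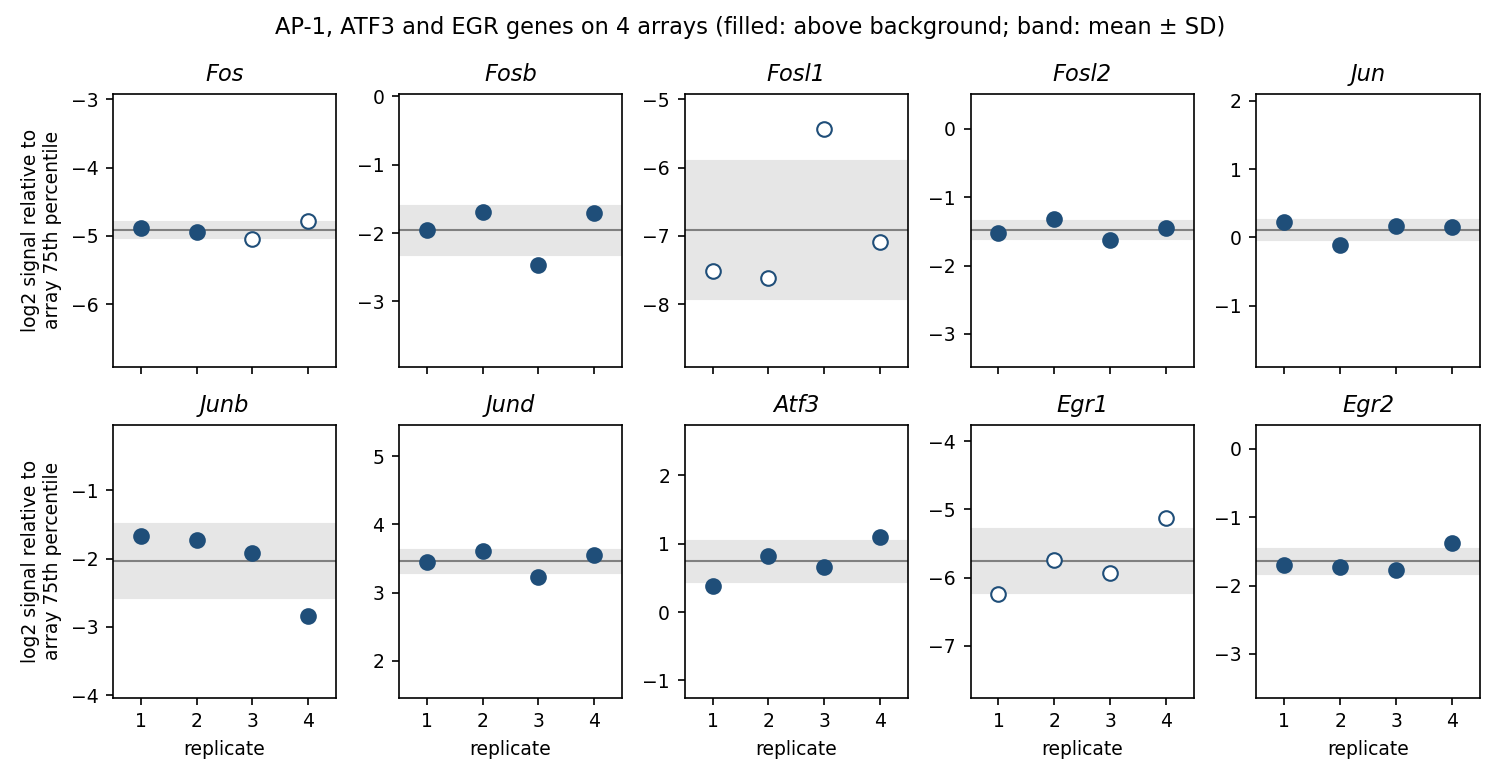
Log2 level against the 75th percentile of each array (y axis, the same span in every panel) for the probe that stands for each of the 10 genes, by replicate (x axis). Filled points were above background and open points were not, the line is the mean and the band its SD over 4 arrays. On these values from the processed signal, Junb on replicate 4 and Fosl1 on replicate 3 lie farthest from their other arrays.

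Whether any of these genes differed between the cultures by more than genes of like level was asked over 8376 genes, those above background on every array. A prior variance was fitted to mean level with limma, and each gene's variance was set against it in an F test. That F test was computed from limma's prior and is not a limma function, and its p-values are labelled limma throughout. Of the 7 members tested, 0 passed at an adjusted p of 0.05, against 0.191% of all genes (16), and 1 had an unadjusted p under 0.05, against 5.75% of all genes. That gene was Junb, with an SD of 0.54 against a prior of 0.22 at its level (limma unadjusted p 0.0142, adjusted p 0.542). Its unadjusted p was 0.703 in limma without replicate 4 and 0.526 with the local median subtracted. Atf3 (0.30 against 0.17, limma unadjusted p 0.0857) and Fosb (0.36 against 0.22, limma unadjusted p 0.106) also lay above their prior. The adjusted p of these 2 genes in limma was 0.971 and 0.978. Fosl2, Jun and Egr2 varied less than the prior, and Jund slightly more. The median SD was 0.18 for the 7 members and 0.18 for all tested genes, and the median ratio of the SD to the prior SD was 1.16 and 0.92. This spread holds differences of culture, labelling and array alike, which cannot be told apart with 1 array per culture; all 4 arrays lay on 1 slide.

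**Figure D5:**
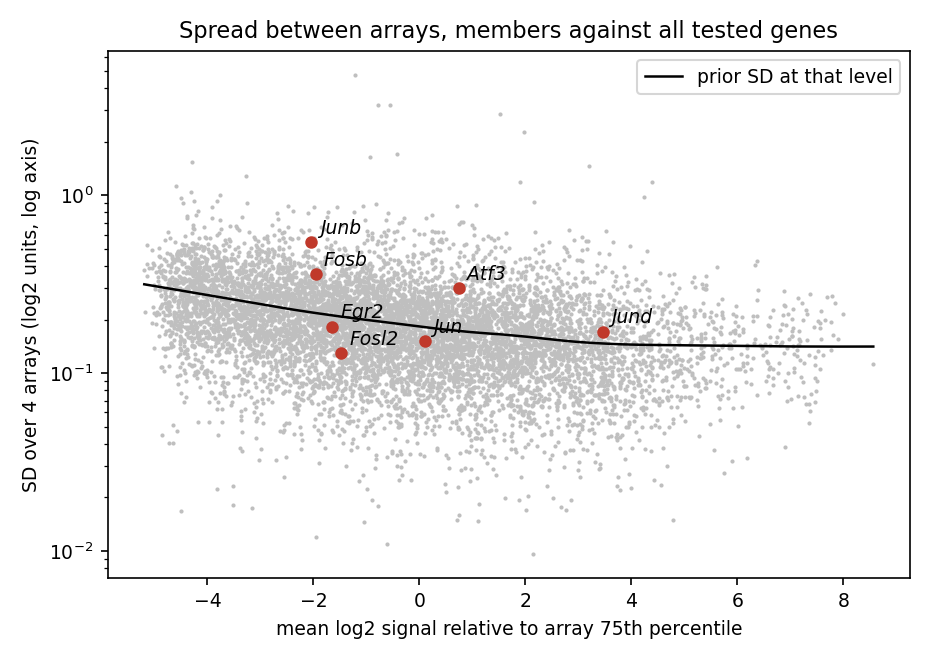
SD over the 4 arrays (y axis, log scale) against mean log2 level (x axis) for the 8376 tested genes (grey) and the 7 members above background (red), with the fitted prior SD as a line. Junb, at 0.54, lies farthest above the line, followed by Atf3 and Fosb, and Fosl2, at 0.13, lies below it.

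By array, and with 1 probe per gene, 4 of the 7 members were lowest on replicate 3 (Fosb, Fosl2, Jund and Egr2), where 34.4% of all tested genes were lowest. The second probes of Jund and Egr2 were instead highest on replicate 3. By the same probes, 2, 3, 0 and 2 members were highest on replicates 1 to 4, against 19.9%, 23.6%, 20.1% and 36.3% of all tested genes. The median deviation of the 7 members was -0.02, 0.15, -0.13 and 0.09 on replicates 1 to 4, and that of all tested genes -0.02, 0.01, -0.03 and 0.07. The genes whose 4 deviations lay nearest to those of Atf3 were Csnk2a1, Cox16 and Acadsb, at root mean square differences of 0.02, 0.03 and 0.04, where the median over all 8375 other genes was 0.27. Nearest to Jun were Ube2n, Cnnm4 and Il17b, at 0.008, 0.01 and 0.01, where the median was 0.21. These are likenesses to 1 probe. The second Jun probe differed from the first by 0.27, more than that median. With so many genes and 4 arrays, some lie near any pattern.

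Genes around these factors were read from 7 lists, of which 68 of 72 genes were matched on the array. In all, 52 (76.5%) exceeded background on every array, 10 did so on some arrays and 6 on no array, against 50.5%, 6.45% and 43.0% of all named genes. The counts of each list stand against the same shares. Of the zipper partners of AP-1, 7 of 10 were above background, among them Batf3 (-0.84 ± 0.15), the JUN and FOS partner Jdp2 (1.47 ± 0.21) and Atf2 (-3.79 ± 0.28). Batf, Atf7 and Maf were above it on some arrays. Of the CREB, ATF and C/EBP factors, 9 of 10 were above background, including Atf1 (1.39 ± 0.22), Creb1 (-2.55 ± 0.21), Crem (0.80 ± 0.12) and the translationally controlled stress factor Atf4 (4.57 ± 0.22). The exception was Cebpa, above background on no array. Values are means ± SD over n = 4 arrays.

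Partners of the EGR factors were present in part. The corepressors Nab1 (-0.08 ± 0.33) and Nab2 (1.04 ± 0.16), which bind EGR proteins, and the factor Sp1 (-1.14 ± 0.31) were above background on all arrays. Egr3 was above background on 1 array, and Egr4 and Wt1 on none. Serum response factor, Srf (1.15 ± 0.19), and its cofactors Elk1 (-1.86 ± 0.26), Elk3 (-2.87 ± 0.20) and Elk4 (-0.86 ± 0.36), which bind with it at CArG boxes, were all above background.

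Upstream, 13 of 16 genes of the MAP kinase cascade were above background on all arrays. They include the ERK gene Mapk3 (5.49 ± 0.21) and the JNK genes Mapk8 (-4.13 ± 0.19) and Mapk9 (-0.44 ± 0.07), whose products phosphorylate JUN. Map2k6 and Map2k7 were above background on some arrays and Map3k5 on none. Of 7 genes that control turnover of AP-1 mRNA or protein, 5 were above background: the ubiquitin ligase genes Fbxw7 (-1.65 ± 0.23), Cop1 (0.61 ± 0.23) and Det1 (-3.22 ± 0.41), and the RNA-binding protein genes Zfp36l1 (-1.73 ± 0.24) and Elavl1. Itch and Zfp36, which encodes the mRNA decay factor tristetraprolin, were each above it on 1 array.

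Of 15 genes known as AP-1 or EGR targets, 11 were above background on all arrays. The first of them in list order were the matrix proteases Mmp9 (-1.23 ± 0.80) and Mmp12 (-1.56 ± 0.85), the urokinase receptor Plaur (-0.98 ± 0.30) and cyclin D1, Ccnd1 (1.94 ± 0.10). Plau and Timp1 were above background on some arrays, and Mmp13 and Il6 on none. In the same limma test, 1 of the 52 genes passed, Cebpg, a zipper partner of C/EBP and ATF factors (adjusted p 0.0395). It read 1.48, 1.68, 1.37 and -0.24 on replicates 1 to 4. Its spot lay in the dim region of replicate 4, where the neighbours deviated by -0.72, and its adjusted p in limma was 0.424 with the local median subtracted. It then read 1.30, 1.38, 1.17 and 0.48, still lowest on replicate 4, with an SD of 0.41 against a prior of 0.16 (limma unadjusted p 0.00496). Ddit3 was the only other of these 52 genes in that region.

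The macrophage label was checked on 9 matched markers. Cd68, Csf1r, Lyz2, Spi1, Pparg, Mrc1 and Itgam were above background on all arrays, and Marco and Adgre1 on none. Of 23 matched markers of other cell types, 19 were above background on no array, Cd79b on 1, and the endothelial genes Pecam1, Cdh5 and Vwf on all.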

How the data were processed

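Total RNA of 4 exposed cultures was labelled with Cy3 and read on 1 single-colour Agilent array each. The deposited intensity values were written by the authors' Feature Extraction software from Agilent (version 11.0.1.1 in the submitters' processing notes): the processed signal, its error estimate, and the median spot and background signals, with marks of 0 or 1 per spot as other values, per the file headers. They are not scaled between arrays. The authors' normalization and tests are not given in the sources used.

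Outlier spots were left out unless a probe had no other. Log2 signals were set relative to the 75th percentile of the non-control spots (58717 in all) that were not marked as outliers, and repeat spots averaged. Accessions were matched without version to RefSeq (GRCr8, names only), and each gene took the value of its probe detected on the largest number of arrays, ties going to the brightest. Of 45598 probes, between 37.8% and 41.2% were above background per array. The spread between arrays was examined in R 4.3.3. The prior variance came from limma 3.58.1 (squeezeVar, robust trend), and each gene's variance over that prior went into an upper-tail F test with Benjamini-Hochberg adjustment. Tried on simulated data, this F test missed many genes given a larger spread, so a gene that did not pass may still vary more than others. The files hold no mean spot signal, so the planned normexp alternative used the median signal with an offset of 50.

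Members and lists were chosen with earlier results of these data known. The text names all members, the first 4 genes of each list above background on all arrays (Elavl1 and the markers besides; some genes are not reported here), those above it on some or none, any that passed the test, and the 3 genes nearest to Atf3 and to Jun. Ddit3 was named after its values were seen.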

Additional observations from a re-analysis of the deposited data

Results flagged for a closer look

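Dixon's test was run on 50 probes or genes with 4 values each. It set 1 array apart for 2 of them, and chance alone does so for about 1 in 20; it did so for 0 of the 15 member probes. Cebpg was among the 50 because it had passed the spread test, so this chance rate does not apply to it. Cebpg stood at -0.24 on replicate 4, while replicates 1 to 3 ran from 1.37 to 1.68, with its spot in the dim region of that array. Mmp12, a macrophage protease, stood at -0.29 on replicate 4, while replicates 1 to 3 ran from -2.10 to -1.86. Its neighbouring spots deviated by 0.25 on replicate 4 and its own spot by 1.27. With the local median subtracted, Mmp12 read -1.94, -1.99, -1.74 and -0.54 on replicates 1 to 4, still highest on replicate 4. The results of Dixon's test given here, for Cebpg and Mmp12 alike, are for levels without this subtraction.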

How the results depend on the processing

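The number of members above background was 8 with 1 array or 1 spot as enough, and 9 with the positive and significant mark. It was 7 with normexp, quantile normalization, all spots kept and each replicate left out, but these could not change it. Normexp and quantile normalization leave the mark as it is, and no member spot was marked an outlier. Fos lacked the mark on replicates 3 and 4, and Fosl1 and Egr1 on every array. In none of the 14 alternatives did a tested member pass for excess spread; over them the adjusted p in limma ranged from 0.203 to 0.994 for Junb and from 0.739 to 0.989 for Atf3. The number of all genes that passed, 16, became 157 with normexp, 25 with all spots kept, 5 with a constant prior variance and 10 with a non-robust prior, and lay between 7 (without replicate 2) and 22 when 1 replicate was left out; the cause was not tested. With the local median subtracted it was 20, of which 13 were among the 16. Levels moved by over 1 SD in all 10 members with the percentile over probes above background (-1.24 for all genes). They did so in 5 with normexp, 4 with all spots kept (-0.18 for all genes) and 3 with the mean over probes (Fosl2, Jund and Egr2). None moved so far with quantile normalization. None did when a replicate was left out either, but leaving out 1 of 4 values cannot move a mean by that much. Signal over background limits what can be said of Fos, Fosl1 and Egr1. No paired analysis was possible because there is only 1 group of samples.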

Other observations

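Of the 52 list genes tested, 7 had an unadjusted p under 0.05 in limma, against 5.75% of all genes tested. Among them were 3 of the 9 CREB, ATF and C/EBP factors tested (Cebpb, Ddit3 and Cebpg) and 3 of the 11 target genes tested (Mmp9, Mmp12 and Cxcl2); Cebpb, Ddit3 and Cxcl2 were named after their values were seen. Ddit3, which encodes the stress factor CHOP, read 0.89, 1.67, 1.34 and 0.10 on replicates 1 to 4. The neighbours of its spot deviated by 0.15, 0.29, 0.28 and -0.85. With the local median subtracted it read 0.74, 1.37, 1.06 and 0.95, no longer lowest on replicate 4, and its unadjusted p in limma went from 0.000555 to 0.0843. Mmp9, a protease gene with AP-1 sites, read -0.61, -1.36, -2.32 and -0.63, and with the local median subtracted its adjusted p in limma was 0.0413, against 0.166 before. Of the 16 genes that passed the spread test over all genes, 3 lay in the dim region of replicate 4: Cebpg, Nr2c2ap and Uckl1.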
